A study of Mus musculus with 45 samples.

Results

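Combined treatment with retinoic acid (RA) and BMP4 was compared with RA alone on day 5 of the differentiation of mouse embryonic stem cells (mESCs) towards spinal cord cell types. The samples were taken by their titles: 3 libraries of the combined arm (M5) and 3 libraries of the RA arm (R5), which are 6 of the 45 bulk RNA-seq libraries of the study. Both arms began as adherent mESC cultures kept for 2 days in bFGF and CHIR, an activator of WNT signalling, which steers the cells to neuromesodermal progenitors (NMPs). From day 3, R5 cultures received 100 nM RA for 48 h, and M5 cultures received 100 nM RA together with 10 ng/ml BMP4 for the same 48 h. Other groups are used for reference: B5, given RA for 24 h and then RA with BMP4 for 24 h; R4 and M4, the 2 arms after their first 24 h; and R7, M7, R9 and M9, the same arms on days 7 and 9. The labels name neither the mESC line nor its strain, and they describe 3 independent differentiations without saying whether a replicate number marks one of them. The protocol text gives the RA-alone interval both as 48 h and as day 3 to day 4; the titles, which place R5 48 h after day 3, were followed.

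RA enters the nucleus bound to carrier proteins, activates RAR receptors at paired DNA half-sites, and in trunk progenitors turns on neural and Hox genes. BMP4 binds paired type I and type II receptor kinases, which phosphorylate SMAD1, SMAD5 and SMAD9, and the activated SMADs turn on Id, Msx and Tbx genes together with their own inhibitors. In the embryo BMP first favours lateral mesoderm and surface ectoderm over neural ectoderm, and later, from the roof plate, sets out the dorsal cell types of the spinal cord.

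The deposited table holds 11220 genes, each with 1 normalized level per library. Its unit is not given in the sources used here and the depth behind it is unknown. Levels are therefore compared between libraries, for 1 gene or for a list, and levels of different genes are not read as relative amounts of RNA. Sums over a list add its genes in that unknown unit and depend on it. Summed levels were 13608351 to 14339238 in M5 and 14775188 to 15868724 in R5. Over all genes, log2 levels of libraries correlated at 0.982 to 0.991 within M5, 0.978 to 0.991 within R5 and 0.904 to 0.947 between the groups. M5 replicate 3 was the M5 library nearest to R5 in 66.6% of the genes called below, so the total is also given without it. In bulk RNA, fewer cells of a type and less RNA per cell cannot be told apart.

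Combined treatment gave a culture with lower levels of neural progenitor genes and higher levels of most listed lateral mesoderm, mesenchyme, endothelial and pluripotency genes than RA alone. With limma on log2(level + 1), 4975 of 11220 genes (44.3%) were called at an adjusted p under 0.05: 2361 (21%) were higher in M5 and 2614 (23.3%) were lower. Which direction was the larger depended on scaling, since quantile normalization gave 2695 higher and 2195 lower. Of the 4975 genes, 1125 were at least 2-fold higher and 1266 at least 2-fold lower. The median log2 change over all genes was -0.02, and the 3 levels of each group did not overlap in 55.4% of all genes; 42.9% were both called and without overlap. Without M5 replicate 3 the test called 4807 genes, and leaving out each of the other 5 libraries in turn gave 3994 to 4646.

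**Figure D1:**
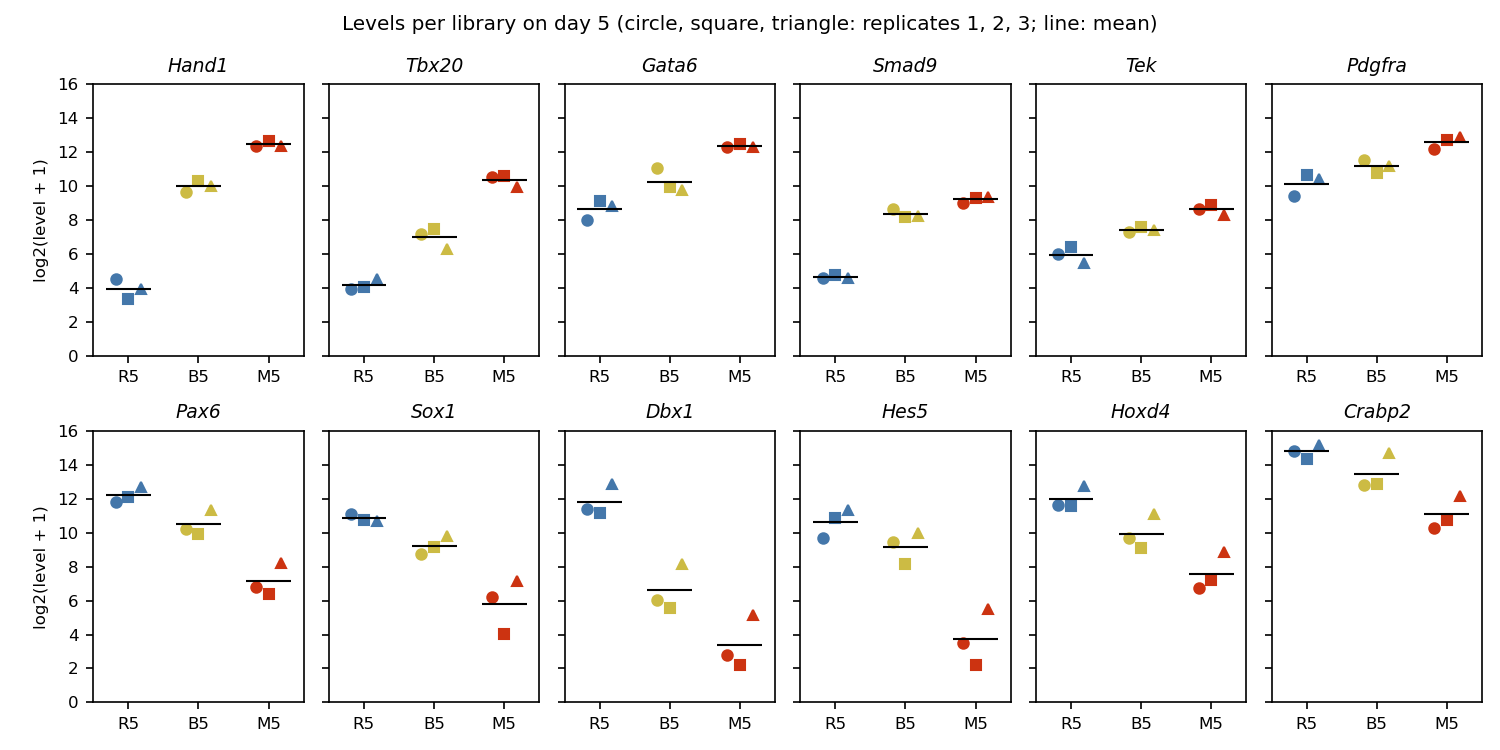
Levels per library on day 5 as log2(level + 1) on the vertical axis, for R5, B5 and M5 on the horizontal axis; circles, squares and triangles are replicates 1, 2 and 3 and the line is their mean. In each of the 6 upper panels every M5 library lies above every R5 library and in each of the 6 lower panels every M5 library lies below every R5 library; the genes shown were chosen after their values were seen.

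The bases that precede the starts of 4 genes are shown first, because they hold the kind of site through which RA, Notch and BMP signals are known to act and because these genes stand for the results below. They are RefSeq promoters of the mouse build GRCm38.p6, printed 5′ to 3′ on the gene's strand and ending at the base before the start of transcription, with the searched motif in capitals. The Rarb window belongs to a transcript that starts inside the longer gene of the GENCODE annotation. The motifs and the genes printed were chosen after their values were seen. Rarb, an RA receptor gene that RA itself turns on, and Cyp26a1, the enzyme that clears RA, each hold a DR5 retinoic acid response element, a pair of half-sites 5 bases apart. Hes5, a Notch effector of neural progenitors, holds TGGGAA, the core bound by the Notch partner RBPJ, once on each strand. Smad9, a BMP-activated transcription factor gene, holds GGCGCC, a GC-rich element bound by SMAD1 and SMAD5.
Rarb, minus strand, chr14:16575477-16575576: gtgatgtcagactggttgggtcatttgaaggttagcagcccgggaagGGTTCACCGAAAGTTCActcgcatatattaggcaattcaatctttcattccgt
Cyp26a1, plus strand, chr19:37697708-37697807: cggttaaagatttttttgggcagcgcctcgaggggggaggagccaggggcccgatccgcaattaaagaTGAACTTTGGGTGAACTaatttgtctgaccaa
Hes5, plus strand, chr4:154960673-154960922: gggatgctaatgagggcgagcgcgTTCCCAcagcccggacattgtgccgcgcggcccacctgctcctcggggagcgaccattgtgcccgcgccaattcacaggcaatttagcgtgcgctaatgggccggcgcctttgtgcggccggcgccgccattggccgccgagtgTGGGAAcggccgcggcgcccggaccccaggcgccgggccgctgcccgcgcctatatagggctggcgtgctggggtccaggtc
Smad9, plus strand, chr3:54755482-54755581: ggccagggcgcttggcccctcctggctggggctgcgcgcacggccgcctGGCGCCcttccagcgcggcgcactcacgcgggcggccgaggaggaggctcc

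The DR5 element was found on either strand in 32 of 32851 RefSeq promoters (0.0974%; windows from 250 bases before to 50 bases after the start), and among the 13 RA genes with a promoter in that set it was found in 2, Rarb and Cyp26a1. Of the 7 genes of the table with such a promoter, Rarb (log2 change -2.62) and Cyp26a1 (-2.03) were lower in M5, Blvrb (0.80) and Hbb-y (2.32) were higher, and Prokr2 (0.23), Syndig1 (-0.54) and Tnfsf13b (0.14) were not called. TGGGAA lay in 25.6% of all promoters and in 3 of 12 Notch pathway promoters, those of Hes5, Hey2 and Lfng. GGCGCC lay in 11.9% of all promoters and in 5 of 10 BMP target promoters, those of Id2, Id4, Smad9, Gata2 and Gata3. Such a share was not particular to BMP targets. Over the other lists it ran from 0 of 6 promoters (Hox groups 6 to 9) to 6 of 8 (ventral neural tube). It was 5 of 11 for intermediate neural progenitors and 3 of 12 for the Notch pathway, Hes5 and Dll1 included. In turn, the Smad9 promoter also held the RBPJ core, so the motifs did not separate these genes. GGCGCC reads the same on both strands, and a match is a run of letters, not a bound site.

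BMP signalling was described by its responsive genes first. Of the 17 BMP target genes, 10 were higher in M5, 1 was lower and 6 were not called (median log2 change 1.85). Smad9 measured 22.9, 26.2 and 23.3 in the R5 libraries and 520, 632 and 670 in the M5 libraries, a log2 change of 4.59 ± 0.81 (SE; adjusted p = 2.89e-05). Every M5 library lay more than an order of magnitude above every R5 library. Bambi, a decoy receptor that dampens BMP signalling, measured 249, 383 and 303 in R5 and 3488, 4005 and 3803 in M5 (3.61 ± 0.46; adjusted p = 1.73e-07). The inhibitory Smads moved the same way: Smad6 was 682, 980 and 827 in R5 and 2887, 3248 and 3277 in M5 (1.93 ± 0.42), and Smad7 was 437, 591 and 409 in R5 and 2986, 2496 and 2132 in M5 (2.41 ± 0.51). Tbx3, a T-box repressor, changed by 3.59 ± 0.69 (adjusted p = 9.25e-05), Gata2 by 2.57 ± 0.63 and Gata3 by 2.20 ± 0.71, and the groups did not overlap for any of them.

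The Id and Msx genes, the usual first markers of a BMP response, were mixed on day 5. Id1, an inhibitor of basic helix-loop-helix factors, was higher, at 1621, 1807 and 1711 in R5 and 3569, 3812 and 4564 in M5 (1.21 ± 0.38; adjusted p = 0.00957). Id3 went the other way in level, 7390, 9828 and 11984 in R5 and 4158, 4998 and 7058 in M5, and was not called (-0.86 ± 0.43; adjusted p = 0.107). Msx1, a homeobox repressor of the dorsal midline, was 4840, 5844 and 8277 in R5 and 814, 1642 and 4115 in M5, also below R5 in every library but not called (-1.80 ± 0.87; adjusted p = 0.09). M5 replicate 3 was nearest to R5, and without that library the adjusted p was 0.0405 at a log2 change of -2.41. Msx2 was 294, 352 and 489 in R5 and 964, 1309 and 1763 in M5, without overlap, at 1.82 ± 1.07 (adjusted p = 0.173). Fitted on the 6 libraries alone, in place of all 45, the adjusted p-values were 0.0249 for Id3, 0.0341 for Msx1 and 0.00243 for Msx2. Atoh8, a helix-loop-helix gene on the same list, was lower in M5, at 1535, 1481 and 2276 in R5 and 253, 395 and 618 in M5 (-2.13 ± 0.49; adjusted p = 0.000663).

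On day 4, after 24 h of the same treatment, 12 of the 17 BMP targets were higher in M4 than in R4 and none was lower (over all genes 6.76% were higher and 7.37% lower). Msx2 then differed by 4.90 against 1.82 on day 5, Msx1 by 1.65 against -1.80, Id3 by 0.92 against -0.86 and Id1 by 2.15 against 1.21. None of these 4 differences between the days passed the test: the adjusted p-values were 0.235 for Msx2, 0.0815 for Msx1, 0.0724 for Id3 and 0.312 for Id1. M4 was uneven for these genes, with Msx1 at 11106, 1901 and 9863 and Msx2 at 6795, 1980 and 4201 in its replicates 1, 2 and 3. No BMP target was called for the difference between the days, where 757 of 11220 genes (6.75%) were.

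**Figure D2:**
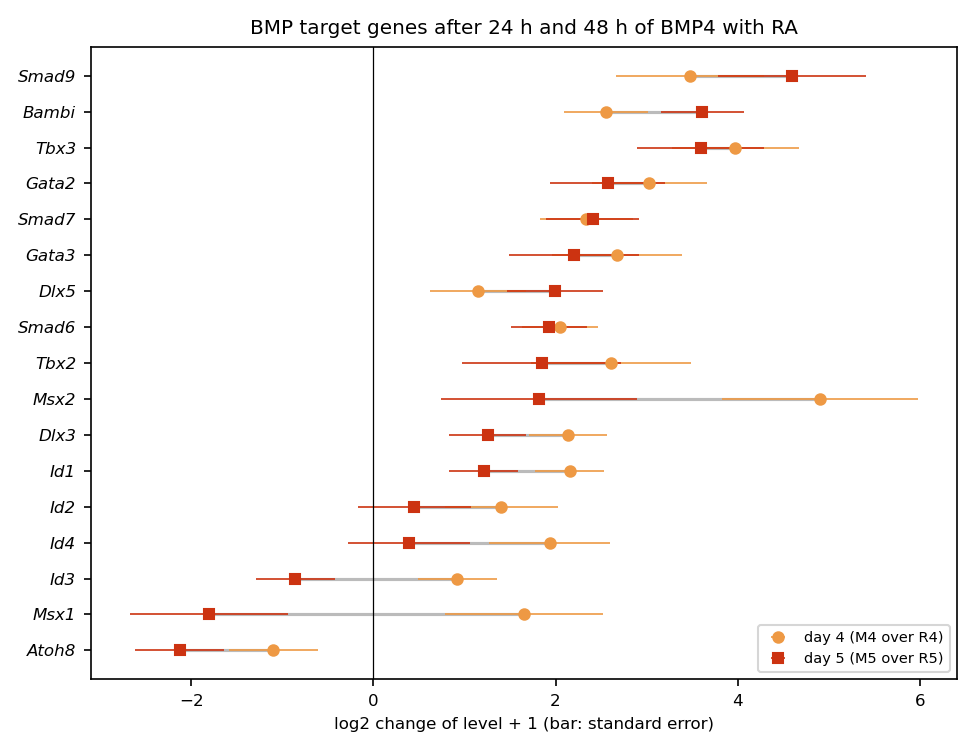
Log2 change of level + 1 (horizontal axis) for the 17 BMP target genes (vertical axis), as M4 over R4 on day 4 (circles) and M5 over R5 on day 5 (squares); bars are standard errors and grey lines join the pairs. Smad9 is at 4.59 on day 5 and Atoh8 at -2.13, and the widest gaps between the days are those of Msx1 and Msx2.

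Several ligands, receptors and antagonists of the BMP pathway were lower in M5. Of the 23 in the table, 10 were lower in M5, 1 was higher and 12 were not called (median -0.87). Bmp2 was 376, 444 and 382 in R5 and 60.6, 102 and 76.3 in M5 (-2.35 ± 0.24; adjusted p = 3.64e-09), and Bmp7 was 2342, 2891 and 2812 in R5 and 513, 620 and 1014 in M5 (-1.96 ± 0.29; adjusted p = 1.86e-06). Gdf7, the roof plate ligand, was 67.7, 222 and 106 in R5 and 6.29, 15.4 and 30.9 in M5 (-2.91 ± 0.63). The antagonist Chrdl1 (-3.19) and the co-receptor Rgma (-2.45) were lower as well. The gene of the added ligand, Bmp4, was 288, 659 and 387 in R5 and 1074, 930 and 572 in M5, which was not called (0.98 ± 0.59; adjusted p = 0.179).

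Genes that RA controls were lower in M5 although both arms received the same dose. Of 18 genes of RA metabolism and response, 11 were lower, 2 were higher and 5 were not called (median -1.68). Crabp2, which carries RA to its nuclear receptors, was 29371, 21129 and 37076 in R5 and 1262, 1737 and 4692 in M5 (-3.71 ± 0.60; adjusted p = 8.78e-06). Stra8, a gene named for its induction by RA, was 5161, 2449 and 3054 in R5 and 319, 338 and 443 in M5 (-3.22 ± 0.45; adjusted p = 7.68e-07). Stra6, the receptor for the retinol carrier, was 5153, 5953 and 7439 in R5 and 429, 674 and 1529 in M5 (-3.00 ± 0.47). The groups were well apart for all 3 genes, and M5 replicate 3 was the highest M5 library for each. The 2 genes with a DR5 element shown above followed: Rarb measured 2615, 5013 and 7832 in R5 and 461, 719 and 1315 in M5 (-2.62 ± 0.71; adjusted p = 0.00315), and Cyp26a1 measured 2435, 1270 and 2676 in R5 and 354, 468 and 734 in M5 (-2.03 ± 0.58; adjusted p = 0.00501). Aldh1a2, the enzyme that makes RA in the trunk, was 1659, 2166 and 1941 in R5 and 245, 336 and 764 in M5 (-2.26 ± 0.46). The receptor gene Rarg went the other way, from 766, 507 and 432 in R5 to 2826, 2544 and 1857 in M5 (2.10 ± 0.31; adjusted p = 1.96e-06), and so did Aldh1a3, at low levels (1.86 ± 0.51; adjusted p = 0.0034).

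The Hox genes, which record position along the body and of which the 3′ members respond to RA, split by their place in the clusters. All 15 genes of paralogue groups 1 to 5 were lower in M5 (median -2.30). Of the 12 in groups 6 to 9, 9 were lower, Hoxd9 was higher and 2 were not called (median -2.38). Of the 7 measured members of groups 10 to 13, 3 were higher, 4 were not called and none was lower (median 0.91), where 21% of all genes were higher. With a minimum level of 20 the count called was 1. Hoxd4 was 3229, 3112 and 7052 in R5 and 105, 146 and 460 in M5 (-4.43 ± 0.59; adjusted p = 4.22e-07), and Hoxb4 was 2076, 2209 and 3036 in R5 and 306, 535 and 714 in M5 (-2.30 ± 0.42). Hoxb9 showed the widest gap of the middle groups, 30327, 45616 and 78183 in R5 and 732, 1162 and 5198 in M5 (-4.86 ± 0.68; adjusted p = 8.45e-07). Hoxd9 was 52.4, 48.0 and 59.6 in R5 and 240, 379 and 394 in M5 (2.61 ± 0.40; adjusted p = 3.41e-06), and Hoxa10 was 17.5, 28.8 and 18.1 in R5 and 146, 214 and 156 in M5 (2.96 ± 0.57; adjusted p = 8.61e-05). Hoxa13 (1.51) and Hoxd11 (1.19) were higher at low levels; Hoxd11 had levels of 1.46, 0.827 and 2.05 in R5 and 6.77, 2.82 and 4.49 in M5, and its call was lost without M5 replicate 1 or 3 or any 1 of the R5 libraries (adjusted p = 0.0535 to 0.191). Neighbouring Hox genes have overlapping transcripts, and whether counting used strand is not given in the sources used here.

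**Figure D3:**
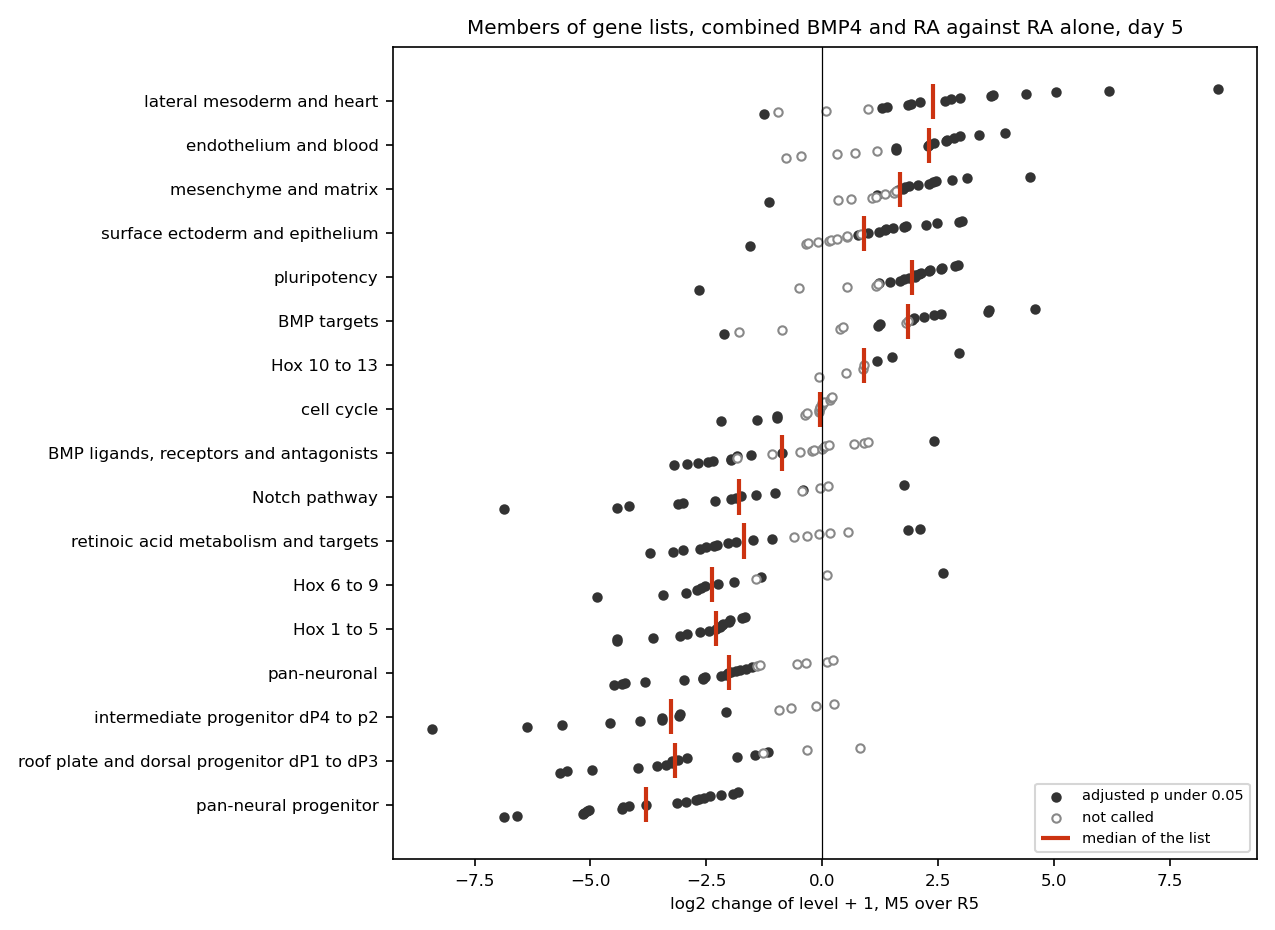
Log2 change of level + 1 from R5 to M5 (horizontal axis) for each measured member of 17 gene lists (vertical axis); filled points have an adjusted p under 0.05, open points do not, and the red bar is the list median. Pan-neural progenitor genes lie from -6.87 to -1.80, all filled, and lateral mesoderm and heart genes reach 8.54; the lists shown were chosen after their values were seen.

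Neural progenitor genes were lower in M5 without exception on the list tested. All 19 pan-neural progenitor genes were called lower and none overlapped between the groups (median -3.80). Over all genes 23.3% were called lower and 55.4% did not overlap, and the list was chosen with earlier results of these data known. The count was also 19 with each of the 6 libraries left out in turn. Sox1, a SoxB1 factor of the neural plate, was 2205, 1735 and 1660 in R5 and 74.7, 15.4 and 144 in M5 (-5.03 ± 0.56; adjusted p = 1.58e-08). Sox2, shared by neural progenitors and pluripotent cells, was 6284, 6588 and 6854 in R5 and 1103, 630 and 1652 in M5 (-2.65 ± 0.30; adjusted p = 2.36e-08). Pax6, a patterning factor of the neural tube, was 3568, 4461 and 6720 in R5 and 109, 82.5 and 302 in M5 (-5.08 ± 0.59; adjusted p = 3.22e-08). The M5 libraries kept 1 order for these genes, with replicate 2 lowest and replicate 3 highest. Hes3, a repressor that keeps progenitors from becoming neurons, was 1038, 355 and 666 in R5 and 5.95, 1.38 and 16 in M5 (-6.58 ± 0.85), and the intermediate filament gene Nes was 6287, 8453 and 8885 in R5 and 1251, 1439 and 1685 in M5 (-2.43 ± 0.27).

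Genes of the dorsal progenitor domains, which BMP induces in the embryo, were also lower. Of 16 roof plate and dP1 to dP3 genes, 13 were lower and none was higher (median -3.18). Pax3, a dorsal progenitor factor, was 3303, 5832 and 8850 in R5 and 71.3, 36.8 and 493 in M5 (-5.65 ± 0.89; adjusted p = 5.4e-06), and its partner Pax7 was 1070, 1341 and 2324 in R5 and 28.5, 26.3 and 137 in M5 (-4.96 ± 0.59). Lmx1a, which specifies the roof plate, was 533, 1189 and 740 in R5 and 54.0, 27.5 and 184 in M5 (-3.55 ± 0.88; adjusted p = 0.00136). Neurog1, the proneural factor of the dI2 lineage, was 473, 2280 and 1901 in R5 and 23.1, 11 and 74.8 in M5 (-5.50 ± 0.97). Wnt3a, a roof plate mitogen, was 624, 980 and 741 in R5 and 61.1, 11.4 and 148 in M5 (-3.98 ± 0.56; adjusted p = 1.08e-06). Atoh1, the proneural factor of dI1, lay at 2.87, 9.93 and 2.53 in R5 and 1.10, 1.08 and 1.36 in M5 and was not called (adjusted p = 0.361). Msx3, a marker of the dorsal neural tube, was called at -3.12 ± 1.17 (adjusted p = 0.0298), and lost the call without M5 replicate 1, M5 replicate 2, R5 replicate 2 or R5 replicate 3 (adjusted p = 0.0548 to 0.209).

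Of 14 genes of the intermediate domains dP4 to p2, 10 were lower and none was higher (median -3.27). Dbx1 (chr7:49631499-49636849, mm10), which specifies the interneurons flanking the middle of the tube, had the largest decrease of the genes named by rule: 2651, 2326 and 7432 in R5 and 5.95, 3.69 and 34.4 in M5 (-8.42 ± 0.95; adjusted p = 1.95e-08). Prdm13, which selects between inhibitory and excitatory fates, was 1060, 2586 and 2570 in R5 and 26.6, 3.44 and 100 in M5 (-6.37 ± 0.81), and Prdm12 was 259, 465 and 728 in R5 and 5.62, 3.57 and 23.8 in M5 (-5.62 ± 0.75). Of 11 ventral genes, 4 were lower and 7 were not called (median -0.53). The called ones were Sim1 (-4.68), Nkx6-1 (-2.98), Olig2 (-2.67) and Mnx1 (-2.30). Olig2, the motor neuron progenitor factor, was already low in R5, at 15.4, 22.3 and 13.3, and was 1.5, 1.77 and 2.06 in M5.

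Genes shared by most neurons were lower too. Of 22 pan-neuronal genes, 16 were lower and 6 were not called (median -2.01); without M5 replicate 2 the count was 10. Elavl2, a neuronal RNA-binding protein gene, was 1176, 1550 and 2033 in R5 and 364, 361 and 586 in M5 (-1.86 ± 0.21; adjusted p = 1.75e-08). Insm1, expressed in newborn neurons, was 251, 828 and 731 in R5 and 13.9, 20.8 and 40.7 in M5 (-4.49 ± 0.76). Tubb3, the neuronal tubulin, was 574, 1790 and 1210 in R5 and 292, 93.6 and 229 in M5 (-2.54 ± 0.85; adjusted p = 0.0149). The Tubb3 call was lost without M5 replicate 2 (adjusted p = 0.0872) and without R5 replicate 2 (0.0683).

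Interneuron factors did not all move together. Of 13 dI1 to dI3 genes, 5 were lower, 2 were higher and 6 were not called (median -1.18). Over all genes 23.3% were lower and 21% higher, so the share of these genes that were higher was below that of all genes. Pou4f1, a sensory interneuron factor, was 512, 783 and 650 in R5 and 71.1, 52.6 and 129 in M5 (-3.01 ± 0.45; adjusted p = 2.47e-06). The 2 that were higher are also known outside the spinal cord: Foxd3, of neural crest and pluripotent cells, was 11.4, 42.2 and 9.80 in R5 and 260, 51.2 and 167 in M5 (2.87 ± 0.84; adjusted p = 0.00581). The Foxd3 call was lost with replicate number fitted as a block on the 6 libraries alone (adjusted p = 0.0543). Isl1, of second heart field cells as well as dI3, was 23.9, 67.5 and 45.6 in R5 and 156, 180 and 151 in M5 (1.92 ± 0.77; adjusted p = 0.041), a call lost without any 1 of the M5 libraries or without R5 replicate 1 or 3 (adjusted p = 0.0672 to 0.155). Of 14 dI4 to dI6 genes, 8 were lower, 3 were higher and 3 were not called (median -2.32). The share that was higher was near the 21% of all genes. Pax2, of inhibitory interneurons and intermediate mesoderm, was 530, 645 and 940 in R5 and 31.2, 55.2 and 98.3 in M5 (-3.60 ± 0.55; adjusted p = 3.13e-06). Phox2a, a factor of noradrenergic neurons, was 88.8, 91.4 and 86.6 in R5 and 608, 609 and 580 in M5 (2.74 ± 0.23; adjusted p = 7.79e-11), with a narrow spread in both groups. Wt1 (1.41) and Tlx1 (1.31) were the other 2 higher genes; Wt1 lost its call without R5 replicate 1 (adjusted p = 0.0803), and Tlx1 without M5 replicate 3, R5 replicate 1 or R5 replicate 3 (0.0561 to 0.102).

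Notch signalling, by which progenitors hold each other back from becoming neurons, was read from 16 genes, of which 12 were lower, 1 was higher and 3 were not called (median -1.80). The ligand Dll1 was 1806, 2300 and 3134 in R5 and 83.9, 54.4 and 276 in M5 (-4.43 ± 0.48; adjusted p = 9.93e-09). The receptor Notch1 was 2372, 2695 and 2865 in R5 and 709, 680 and 1002 in M5 (-1.75 ± 0.29). Lfng, which modifies the receptor, was 499, 801 and 867 in R5 and 48.7, 15.7 and 70.0 in M5 (-4.18 ± 0.38; adjusted p = 4.16e-10). The effector Hes5, whose promoter is printed above, was 827, 1842 and 2578 in R5 and 10.4, 3.70 and 44.7 in M5 (-6.87 ± 0.85; adjusted p = 1.06e-07). The effector Hes1 was 1098, 1170 and 1152 in R5 and 1254, 1222 and 1288 in M5, and was not called (0.14 ± 0.15). Hey2, an effector of heart and vessels as well as of neural cells, was the 1 higher member, at 54.3, 80.1 and 88.3 in R5 and 195, 253 and 315 in M5 (1.77 ± 0.34; adjusted p = 0.0001).

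Lateral mesoderm and heart genes made up the other side of the comparison. Of 18 genes, 14 were higher in M5, 1 was lower and 3 were not called (median 2.39). Hand1 (chr11:57828705-57832818, mm10), a factor of lateral and extraembryonic mesoderm, was 22.0, 9.23 and 14.1 in R5 and 5262, 6606 and 5277 in M5 (8.54 ± 0.91; adjusted p = 6.02e-09), the largest increase of the genes named by rule. Tbx20, a cardiac T-box factor, was 14.3, 15.4 and 22.1 in R5 and 1493, 1539 and 979 in M5 (6.19 ± 0.63; adjusted p = 2.57e-09), and Tbx5, of heart and forelimb, was 17.3, 50.8 and 32.9 in R5 and 703, 1122 and 1501 in M5 (5.06 ± 0.69). Gata6, of cardiac mesoderm and endoderm, was 261, 568 and 460 in R5 and 5039, 5774 and 5061 in M5 (3.69 ± 0.61; adjusted p = 1.02e-05). Foxf1, of splanchnic mesoderm, was 156, 111 and 134 in R5 and 641, 1084 and 1103 in M5 (2.78 ± 0.52). Nkx2-5, the factor of committed cardiac precursors, was lower in M5, at 93.3, 72.0 and 58.4 in R5 and 34.1, 26.9 and 29.9 in M5 (-1.25 ± 0.26; adjusted p = 0.000215).

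Contractile genes did not move as 1 group. Of 18, 3 were higher and 3 lower, where 21% and 23.3% of all genes were, and 12 were not called (median 0.10). Tnni1, the slow skeletal and fetal cardiac troponin I, was 5.77, 5.84 and 10.2 in R5 and 107, 191 and 248 in M5 (4.42 ± 0.52; adjusted p = 3.87e-08), and the filament gene Des was 154, 154 and 155 in R5 and 613, 667 and 583 in M5 (2.0 ± 0.21). Actc1, the cardiac actin, was lower, at 195, 418 and 603 in R5 and 43.3, 74.3 and 75.8 in M5 (-2.53 ± 0.45; adjusted p = 2.65e-05). Among other mesodermal genes, 7 of 17 paraxial and somite genes were lower and 1 was higher (median -1.29), with Uncx, of posterior somites, at -5.03, and Pax9, of the sclerotome, at -3.32. The 1 higher gene was Tbx18 (1.73 ± 0.55; adjusted p = 0.0107), a call lost without R5 replicate 1 (0.0546). Of 12 intermediate mesoderm genes, 4 were lower and 2 were higher (median -0.01), not far from the 23.3% and 21% of all genes. Of 9 mesothelium genes 3 were higher, where 21% of all genes were, and none was lower (median 0.98). That count was 1 without R5 replicate 1.

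Mesenchyme and matrix genes were higher: 12 of 20, with 1 lower and 7 not called (median 1.69). Snai1, a driver of epithelial to mesenchymal transition, was 210, 207 and 233 in R5 and 1034, 1145 and 1236 in M5 (2.39 ± 0.27; adjusted p = 1.56e-08). Twist2, a mesenchymal factor, was 113, 181 and 204 in R5 and 1118, 1472 and 1727 in M5 (3.13 ± 0.41). Fn1, the fibronectin gene, was 5958, 8369 and 6314 in R5 and 25108, 25554 and 18267 in M5 (1.74 ± 0.27; adjusted p = 5.63e-06), and the PDGF receptors Pdgfra (2.45) and Pdgfrb (1.79) were higher. Vim, an intermediate filament gene of mesenchyme and of neural progenitors, was the lower member, at 16954, 35974 and 31109 in R5 and 12454, 13320 and 10669 in M5 (-1.14 ± 0.38; adjusted p = 0.0154), and lost its call without R5 replicate 2 (0.0832) or 3 (0.0619).

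Endothelial and blood genes were higher in 11 of 16 cases and lower in none (median 2.30). Tek, the angiopoietin receptor, was 63.2, 83.2 and 44.3 in R5 and 411, 474 and 321 in M5 (2.67 ± 0.29; adjusted p = 6.84e-09). Pecam1, an endothelial adhesion molecule, was 62.0, 48.9 and 28.6 in R5 and 626, 607 and 276 in M5 (3.38 ± 0.52; adjusted p = 4.08e-06), with M5 replicate 3 below the other 2. Lyl1, a blood and endothelial factor, was 5.43, 2.76 and 3.58 in R5 and 75.3, 94.1 and 53.9 in M5 (3.94 ± 0.43; adjusted p = 9.93e-09). The embryonic globin gene Hba-x, chosen after its values were seen, overlapped between the groups, at 12.7, 5.57 and 47.7 in R5 and 91.3, 119 and 45.1 in M5 (2.29 ± 0.92; adjusted p = 0.0419).

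Surface ectoderm and epithelial genes were higher in 12 of 22 cases and lower in 1 (median 0.91). Grhl2, a factor of surface ectoderm, was 102, 50.6 and 30.5 in R5 and 603, 463 and 316 in M5 (3.02 ± 0.49; adjusted p = 9.07e-06). Krt8, a keratin of simple epithelia, was 1276, 1268 and 1036 in R5 and 3126, 3345 and 2783 in M5 (1.37 ± 0.20). Trp63, the epidermal p63, was 47.8, 91.7 and 63.3 in R5 and 298, 276 and 366 in M5 (2.23 ± 0.48; adjusted p = 0.000325). Krt7 was the lower member (-1.56 ± 0.48; adjusted p = 0.00923), and lost its call without M5 replicate 3 (0.0589) or R5 replicate 2 (0.0546). Neural crest genes split evenly, 5 of 17 higher and 5 lower (median 0.17), where 21% of all genes were higher and 23.3% lower. The lower ones were Pax3, Pax7, Ednrb (-4.94), Tfap2b (-4.64) and Sox9 (-1.63), and the higher ones included Erbb3, a neuregulin receptor, at 186, 205 and 131 in R5 and 546, 483 and 456 in M5 (1.53 ± 0.22; adjusted p = 1.47e-06). The Sox9 call was lost without M5 replicate 1, M5 replicate 2 or R5 replicate 3 (adjusted p = 0.0539 to 0.108). Sox10, the defining factor of migrating crest, was 22.1, 92.4 and 36.7 in R5 and 60.1, 43.2 and 171 in M5, and was not called (adjusted p = 0.415).

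Pluripotency genes were higher in M5 than in R5. Of 20, 15 were higher, 1 was lower and 4 were not called (median 1.93). Pou5f1, the gene of OCT4, was 202, 116 and 64.5 in R5 and 863, 651 and 346 in M5 (2.33 ± 0.71; adjusted p = 0.00828). Prdm14, a repressor that keeps stem cells from differentiating, was 6.56, 5.34 and 1.75 in R5 and 33.1, 26.9 and 29.2 in M5 (2.59 ± 0.59; adjusted p = 0.000657). Tet2, an enzyme that oxidizes methylcytosine, was 414, 534 and 410 in R5 and 1832, 1661 and 1180 in M5 (1.77 ± 0.32). In both groups replicate 3 was the lowest library for Pou5f1 and Tet2. The lower member was Sox2. The mean log2 level of the pluripotency list was 10.79 ± 1.20 (SD, n = 3) in the undifferentiated cells of day 0, 6.42 ± 0.59 in R5 and 8.0 ± 0.54 in M5. The count depended on single libraries: without R5 replicate 3 it was 9 called genes in place of 16, without M5 replicate 1 it was 10, and Pou5f1 itself lost its call without R5 replicate 3 (adjusted p = 0.0577). Between days 4 and 5 the list moved by a median of -0.93 in the RA arm and 0.07 in the combined arm, with no member called in either arm (10.4% of all genes were called between M4 and M5, 5.22% higher and 5.14% lower, and 12.7% between R4 and R5, 7.09% higher and 5.66% lower). The summed level, which the members with the highest levels set, was 13407 to 26140 in R5 and 12165 to 15807 in M5. There the groups overlap and M5 is not the higher. The labels give the cell type of every library as mESCs.

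These changes stood in the same libraries, so their parts in one another were not tested. Summed levels of the pan-neural progenitor list were 67590 to 117483 in R5 and 10068 to 20661 in M5, and those of the lateral mesoderm and heart list 2371 to 4366 in R5 and 23966 to 29438 in M5. Those of the endothelium and blood list were 1347 to 2479 in R5 and 4338 to 4994 in M5. Summed levels of the endoderm list were 1531 to 2040 in R5 and 5816 to 6464 in M5, of which Gata6, shared with the lateral mesoderm and heart list, alone made up 261, 568 and 460 in the R5 libraries and 5039, 5774 and 5061 in the M5 libraries. Of the 12 endoderm genes, 4 were higher and 2 lower, where 21% of all genes were higher and 23.3% lower. Of 11 trophoblast and extraembryonic genes, Hand1, Gata2, Gata3 and H19 were higher and Krt7 was lower, a count of 5 that was 3 without M5 replicate 3. H19, an imprinted non-coding gene, was called at 1.53 ± 0.61 (adjusted p = 0.0402), and lost the call without M5 replicate 2 or 3 or R5 replicate 1 or 3 (adjusted p = 0.065 to 0.161). No gene of the table, listed markers included, was at 0 in any library. Of the 23 listed cell cycle genes, 16 were in the table. Over all genes 23.3% were lower and 21% higher, and of these 16, 4 were lower, near that share, and none was higher (median -0.05). The lower ones were the cyclins Ccnd1 (-0.98 ± 0.16) and Ccnd2 (-2.17 ± 0.34) and the inhibitors Cdkn1a (-1.41 ± 0.12) and Cdkn2a (-0.98 ± 0.28), and the proliferation marker Mki67 was 11408, 9596 and 11214 in R5 and 9686, 11324 and 11044 in M5. Of 20 stress, hypoxia and immediate early genes, 3 were lower and 1 was higher (median -0.15), both below the shares of all genes. Among the lower ones were Atf3, of the integrated stress response, at -2.88 ± 0.26 and the glucose transporter Slc2a1 at -2.02 ± 0.44.

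WNT and FGF genes showed both directions. Of 24 WNT genes, 9 were lower and 5 were higher (median -0.59), a count of 14 that was 9 without R5 replicate 3. Over all genes 23.3% were lower and 21% higher, so the share of WNT genes that were higher was near that of all genes. Wnt2, a ligand of lung and heart mesoderm, was 6.91, 14.1 and 5.09 in R5 and 295, 479 and 449 in M5 (5.48 ± 0.56; adjusted p = 3.23e-09). The antagonist Sfrp1 was 1478, 4059 and 3129 in R5 and 15186, 17981 and 15301 in M5 (2.60 ± 0.53; adjusted p = 0.000193). Lgr5, an R-spondin receptor and WNT target, was 303, 476 and 683 in R5 and 28.6, 47.5 and 110 in M5 (-3.10 ± 0.45). Of 23 FGF genes, 9 were lower and 7 were higher (median -0.34). Fgfr3, a receptor of neural progenitors, was 1803, 2569 and 3900 in R5 and 211, 261 and 378 in M5 (-3.25 ± 0.46; adjusted p = 1.26e-06). Fgf10, a mesenchymal ligand, was 74.7, 133 and 94.7 in R5 and 207, 282 and 354 in M5 (1.48 ± 0.29; adjusted p = 0.000104). Of 17 caudal progenitor genes, 7 were lower and 3 were higher (median -1.43). T, the brachyury gene, overlapped between the groups and was not called (-1.43 ± 1.04; adjusted p = 0.273).

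Several of the largest changes lay outside these lists. Tac2, the gene of neurokinin B, was 1.52, 1.56 and 1.25 in R5 and 396, 260 and 197 in M5 (6.81 ± 0.47; adjusted p = 1.58e-12). Mab21l2, needed for eye and body wall development, was 3.98, 26.1 and 14.6 in R5 and 727, 1065 and 955 in M5 (6.14 ± 0.79). Rgs5, a pericyte marker, was 3.89, 5.16 and 4.78 in R5 and 360, 366 and 449 in M5 (6.13 ± 0.62; adjusted p = 2.68e-09). For these 3 genes every M5 library lay far above every R5 library. Popdc2, a cAMP-binding protein gene of heart muscle, changed by 5.45 ± 0.55, the potassium channel gene Kcnk3 by 5.21 ± 0.45, and Shisa3, an antagonist of WNT and FGF receptors, by 5.09 ± 0.73. Grin2c, an NMDA receptor subunit gene, changed by 4.64 ± 0.79, and the nuclear receptor gene Nr1h5 by 4.59 ± 0.34.

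Among the largest decreases outside the lists was Fam181a, at 454, 1348 and 1483 in R5 and 3.95, 2.18 and 18.4 in M5 (-7.17 ± 0.77; adjusted p = 8.54e-09). Cp, the ceruloplasmin gene, was 1362, 3905 and 2704 in R5 and 12.8, 3.82 and 76.4 in M5 (-7.14 ± 0.82; adjusted p = 2.64e-08). Foxe3, the lens forkhead factor, was 2173, 738 and 2185 in R5 and 7.85, 11 and 39.7 in M5 (-6.54 ± 0.96), and the protease gene Fap was 134, 894 and 561 in R5 and 4.61, 3.31 and 11.8 in M5 (-5.91 ± 0.83). M5 replicate 3 was the highest M5 library for each of these 4 genes and stayed far below R5. The non-coding genes C130026L21Rik (-5.92 ± 0.49) and 2610100L16Rik (-6.00 ± 0.89) were lower too.

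Combined and sequential BMP4 were then set against each other on the same day, in cultures that differ in whether the first 24 h of RA came with BMP4. M5 thus had 48 h of BMP4 and B5 24 h, so the start and the length of BMP4 treatment cannot be told apart. Both arms are measured from the same R5 libraries, so the 2 sets of changes are given side by side and the test is of M5 against B5 itself. That test called 1997 of 11220 genes (17.8%), of which 961 (8.57%) were higher in M5 and 1036 (9.23%) lower. The count was 1026 without B5 replicate 3, 1142 without M5 replicate 2 and 1225 without M5 replicate 1, and the authors' deposited table, at a false discovery rate under 0.05, held 783 genes higher in M5 and 805 lower. Against R5 itself B5 had 672 called genes (5.99%), 2.76% higher and 3.23% lower. Of the 19 pan-neural progenitor genes, 15 were lower in M5 than in B5 (median -3.04), and against R5 19 were lower in M5 and 6 in B5. Pax6 was 1217, 978 and 2599 in B5, between the groups, and differed from M5 by -3.38 ± 0.59 (adjusted p = 0.000111); its change from R5 was -5.08 in M5 and -1.70 in B5. Hes5 was 704, 280 and 998 in B5 (-5.44 ± 0.85; adjusted p = 2.58e-05). Of the 16 roof plate and dP1 to dP3 genes, 11 were lower in M5 than in B5 and 1 was higher (median -3.28). Lmx1a was 2422, 889 and 2012 in B5 (-4.62 ± 0.88; adjusted p = 0.000314) and Pax3 was 2790, 1523 and 7514 (-4.84 ± 0.89; adjusted p = 0.00021).

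Of the 17 BMP targets, Bambi was higher in M5 than in B5 (1.33 ± 0.46; adjusted p = 0.0399) and none was lower (median 0.39), a share near the 8.57% of all genes called higher, while against R5 10 were higher in M5 and 6 in B5. Smad9 was 402, 290 and 303 in B5, and its difference from M5 was 0.88 ± 0.81 (adjusted p = 0.509). Of 18 lateral mesoderm and heart genes, 5 were higher in M5 than in B5 (median 1.30). Tbx20 was 147, 180 and 78.9 in B5 (3.35 ± 0.63; adjusted p = 0.000272). Hand1 was 824, 1266 and 1028 in B5, below every M5 library, at 2.47 ± 0.91 (adjusted p = 0.0547), which missed the threshold. Surface ectoderm and epithelial genes were higher in M5 in 12 of 22 cases and lower in 1 (median 1.05), and Trp63, at 117, 67.0 and 46.3 in B5, differed by 2.11 ± 0.48 (adjusted p = 0.00208). Among the largest differences from B5 outside the lists were Tac2 (5.04 ± 0.47), Nr1h5 (4.26 ± 0.34) and Mab21l2 (4.92 ± 0.79), all higher in M5, and Cp (-5.86 ± 0.82), which was lower. Further genes higher in M5 were Crhbp (3.67 ± 0.54), a binding protein of corticotropin-releasing hormone, Fitm1 (3.66 ± 0.42), of lipid droplets, and Npy1r (3.57 ± 0.40), a neuropeptide Y receptor.

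The difference between the arms on day 5 was also tested against that on day 4, (M5 over R5) minus (M4 over R4), 4 groups with no library in common. It was higher in 397 genes (3.54%) and lower in 360 (3.21%). These counts rested on few libraries: without M5 replicate 2, M4 replicate 3, R5 replicate 3 or M5 replicate 1 the total of 757 was 416, 439, 447 or 483. Tbx18, of sinus venosus, epicardium and somites, was lower in the combined arm on day 4, at 114, 183 and 114 in R4 and 14.6, 8.10 and 18 in M4, and higher on day 5, at 27.8, 67.6 and 35.1 in R5 and 134, 152 and 125 in M5 (difference 5.0 ± 0.78; adjusted p = 8.95e-05). Trp63 went the other way in size, from 4.85 on day 4 to 2.23 on day 5 (difference -2.61 ± 0.68; adjusted p = 0.016). Kcnk3 changed from 0.19 to 5.21 (adjusted p = 4.67e-06) and Mab21l2 from 0.00 to 6.14 (adjusted p = 0.00076). Among neural genes, Pax7 went from -1.91 on day 4 to -4.96 on day 5 (adjusted p = 0.0207), while Pax6 was at -4.79 and -5.08 (adjusted p = 0.887) and Sox1 at -4.59 and -5.03 (adjusted p = 0.808). In the same day, 8 of 14 dP4 to p2 genes were called higher in R5 than in R4 and 2 lower, and none was called between M4 and M5. Over all genes 7.09% were higher and 5.66% lower in R5 than in R4, and 10.4% were called between M4 and M5. Dbx1 was 131, 163 and 406 in R4 and 10.2, 2.48 and 19.1 in M4, so that its difference between the arms was -4.48 on day 4 and -8.42 on day 5 (adjusted p = 0.0718 for the difference). Of 17 caudal progenitor genes, 10 were lower in M5 than in M4 (5.14% of all genes were) and none was higher. In R5 against R4, 5 of them were lower (5.66% of all genes were) and 1 was higher.

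Both arms were followed after the treatment, which the titles end on day 5, in other libraries than those of day 5; whether they come from the same differentiations is not given in the labels. Between the arms 43.5% of all genes were called on day 7 and 51% on day 9. Of the genes higher in M5, 59.3% were also called higher in M7 against R7 (22.9% of all genes were) and 42.5% in M9 against R9 (27.5% of all genes). Of the genes lower in M5, 54.7% were called lower on day 7 (20.6% of all genes) and 38.3% on day 9 (23.5%). By day 9, 14% of the genes higher in M5 and 15.3% of those lower in M5 were called in the opposite direction. Lateral mesoderm and heart genes were higher in 14 of 18 cases on day 5, 15 on day 7 and 16 on day 9, and pan-neural progenitor genes lower in 19, 16 and 13 of 19. Hox genes of groups 1 to 5, all 15 lower on day 5, were lower in 4 cases on day 7 and 2 on day 9. Endothelial and blood genes were higher in 11 of 16 cases on day 5, 13 on day 7 and 3 on day 9. Pluripotency genes, higher in 15 of 20 cases on day 5, were higher in none on days 7 and 9 and lower in 16 on day 9, when Pou5f1 was 1929, 1774 and 4146 in R9 and 405, 236 and 474 in M9 (-2.76 ± 0.71; adjusted p = 0.00183).

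**Figure D4:**
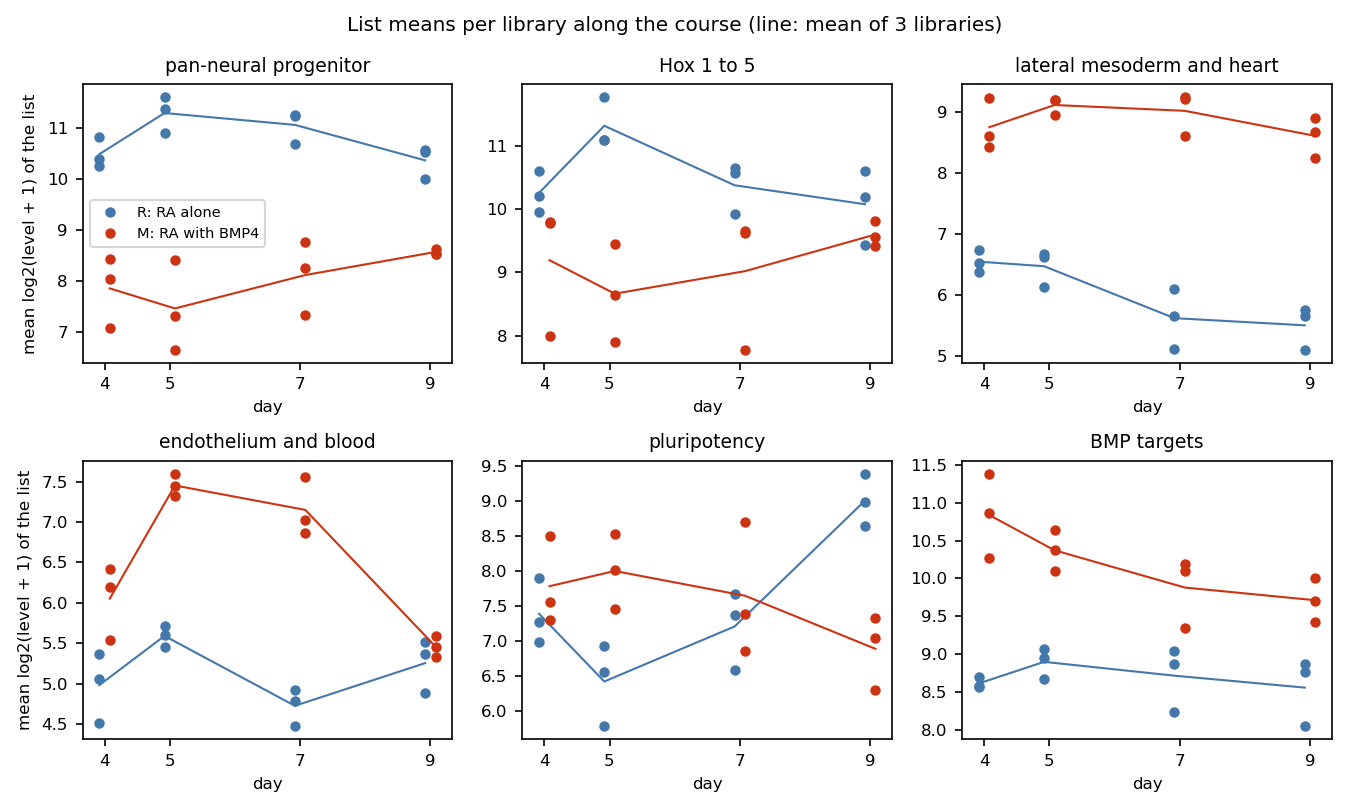
Mean log2(level + 1) of the members of 6 gene lists (vertical axes, each with its own range) against day (4, 5, 7 and 9) for the RA arm (blue) and the combined arm (red); points are libraries and lines join the means of 3. The arms are furthest apart on day 5 for Hox genes of groups 1 to 5, stay apart to day 9 for lateral mesoderm and heart, and change order for pluripotency, where R9 lies above M9.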

How the data were processed

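Total RNA of 45 libraries (15 groups of 3, titles as above) was sequenced after NuGEN library preparation, per the labels' protocols. The authors deposited 1 table of normalized signal levels for 11220 genes, each of which passed a false discovery rate of 0.1 in some comparison of their 12, so genes outside it are not analysed here and shares called are shares of this selected set. No source used here gives their unit, normalization or depth. Picard, edgeR and the mm10 build are named, per the submitters' processing notes, with no role stated. The deposited log2 fold changes, p-values and false discovery rates cover M5 against B5 but not M5 against R5; the deposited score columns headed fpkm are a power of the levels and were not used.

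The levels were not whole counts, so log2(level + 1) was tested with limma 3.58.1 in R 4.3.3: 1 coefficient per group over all 45 libraries, which share 1 estimate of the spread, with trend and robust moderation and Benjamini-Hochberg adjustment over 11220 genes. Every "adjusted p" above is from this test, every ± beside a log2 change is its standard error, and "called" or "lower" and "higher" mean an adjusted p under 0.05. The authors' selection drew on libraries tested here, through M5 against B5, B5 against R5 and M4 against R4. Adjustment over the selected genes alone is therefore lenient. A low-level filter (level of 1 in at least 3 libraries) removed 0 genes. A change on this scale understates that of low genes. On data simulated for M5 against R5 with 11220 genes, 100 genes were changed 2-fold and 100 were changed 4-fold. The test recovered 61% of the changes of 2-fold and 88% of those of 4-fold, with 8 false calls. Far fewer genes were changed than were called in the data, and each gene had the same noise in all libraries. These shares therefore do not describe the real comparison. The members and the 31 gene lists, which share genes, were chosen with earlier results of these data known; 459 of 492 listed genes were in the table. Named genes were the 12 largest called changes in each direction without overlap and with a higher group mean of at least 20 (6 for the other 2 tests), up to 5 members of each list by adjusted p, called members against their list's majority, and a set of marker genes. Aldh1a2, Bmp4, Hba-x, Hbb-y, Hes1, Id2, Id4, Mki67, Rarb, Sox10 and the other genes with a DR5 promoter were named after their values were seen. A few named genes are not reported here, though counts include them. Gene positions are from GENCODE M21 (GRCm38, the sequence of mm10), matched by identifier for 10766 genes. Alternatives were other sample sets, a replicate block, left-out libraries, other pseudocounts, filters, scaling, weights and thresholds.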

Additional observations from a re-analysis of the deposited data

Results flagged for a closer look

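For 48 of the named genes the difference between combined treatment and RA alone changed from day 4 to day 5, by the limma test of (M5 over R5) minus (M4 over R4) at an adjusted p under 0.05; the values below are that difference in log2 units, and their cause was not tested. Over all genes 757 of 11220 (6.75%) passed this test, and the named genes include the 6 largest called differences of this same test in each direction, whose passing the choice fixed. Many of the others were chosen on M5 against R5, whose libraries also enter this test, so the 48 cannot be set against that share. Among genes of heart, vessels and contractile cells it was 3.21 for Tbx20, 3.04 for Popdc2, 2.95 for Hey2, 2.77 for Tnni1, 1.60 for Des and -1.42 for Tpm1. Among genes of mesenchyme, somites and matrix it was 5.0 for Tbx18, 1.70 for Snai1 and 1.73 for Fn1. Among genes of neural progenitors and their domains it was -3.05 for Pax7, -2.29 for Sox3, -1.35 for Irx2 and -1.30 for Nes. Among interneuron and neuronal genes it was 2.37 for Phox2a, -3.60 for Pax2, -2.0 for Gbx1 and -1.29 for Elavl2.

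Among signalling genes the difference was 3.60 for Wnt2, 2.75 for Sfrp1 and -4.20 for Wnt3a, 3.81 for Shisa3, -1.53 for Bmp2 and -1.99 for Bmp7, 1.65 for Rarg and -2.31 for Stra8. Among FGF genes it was 1.51 for Fgf10, -2.83 for Fgfr3, -1.36 for Fgf13 and -1.07 for Spry1. Epithelial and endodermal genes had -2.61 for Trp63 and -2.11 for Foxa1, and cell cycle and stress genes -1.52 for Ccnd2, -0.79 for Ccnd1, -1.0 for Cdkn1a and -1.78 for Atf3. The other genes that gained in M5 had 6.14 for Mab21l2, 5.01 for Kcnk3, 4.70 for Neurl3, 4.57 for Tac2, 2.32 for Npy1r, 2.03 for Fitm1 and 1.74 for Nr1h5. The others that lost had -5.19 for Foxe3, -4.46 for Hk3, -4.15 for Pantr1, -4.10 for 2900092D14Rik, -3.94 for Lypd1 and -3.35 for C130026L21Rik.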

How the results depend on the processing

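The count of 4975 genes called between M5 and R5 was 3994 to 4807 with 1 library left out, 4760 on the 6 libraries alone and 3608 at an adjusted p under 0.01; it was 7713 with array weights (chosen after seeing the data) and 2391 with a 2-fold minimum. The count of 1997 between M5 and B5 was 1026 to 1996 with 1 library left out, 1020 on the compared libraries alone, 4105 with array weights, 1047 at an adjusted p under 0.01 and 972 with a 2-fold minimum. The 757 genes of the day 5 minus day 4 difference were 416 to 1020 with 1 library left out, 363 on the compared libraries alone, 5604 with array weights, 280 at an adjusted p under 0.01 and 483 with a 2-fold minimum. The cause of these shifts was not tested, except that the stricter thresholds call fewer genes by construction. So does an adjustment over all genes the authors tested, estimated at 16014 and added after seeing the data. With it the 3 counts were 4618, 1728 and 630, and Isl1, Hoxd11 and H19 were among the calls lost. The labels do not say that a replicate number marks a shared culture, so the numbers were not taken to pair libraries. Same-numbered M5 and R5 libraries deviated together at r = 0.32, -0.02 and 0.46. The same number was the best match for M5 replicates 1 and 3, while M5 replicate 2 correlated best with R5 replicate 1 (r = 0.06). With a replicate block the 3 counts were 4931, 1927 and 745, and with the block on the compared libraries alone 5646, 1366 and 295.

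Of the 185 named genes called between M5 and R5, 160 kept the call under each of 16 alternatives in which they were tested. In at least 1 alternative 25 lost it, and none changed direction. Hoxa13 fell below the minimum level of 20, so that alternative did not test it, and it is counted as kept. The 16 do not include the stricter thresholds. The alternative without a filter equals the main fit, since the filter removed 0 genes. Counts of list members that moved by over 1.5 times without 1 library stand beside the lists; the Hox 10 to 13 count of 3 was 1 with a minimum level of 20, and the stress list's count of 4 was 7 on the 6 libraries alone. With the replicate block on the 6 libraries alone the stress count was 8, the paraxial count 13 (in place of 8) and the mesothelium count 5 (in place of 3). With array weights more members were called in 7 lists: 17 BMP ligands, receptors and antagonists (11), 11 dI1 to dI3 genes (7), 12 contractile genes (6), 6 mesothelium genes (3), 10 endoderm genes (6), 7 cell cycle genes (4) and 10 stress genes (4), with the count as reported in parentheses. Quantile normalization gave 4890 genes called between M5 and R5, 55.1% of them higher in place of 47.5%. No count test was possible, since the levels are not counts, and the authors' table holds no test of M5 against R5. Depth, and so counting error at low levels, is unknown.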

Other observations

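Among genes outside the lists that rose from day 4 to day 5 in the combined arm, Neurl3, a ubiquitin ligase gene, was 2.22, 1.43 and 1.44 in M4 and 69.0, 58.8 and 55.9 in M5, against 13.6, 4.32 and 12.2 in R4 and 5.07, 14.6 and 6.74 in R5 (log2 change from M4 to M5 4.54 ± 0.49; adjusted p = 1.48e-07). The log2 change from R5 to M5 was 2.78 ± 0.49 for Neurl3 (adjusted p = 2.75e-05).

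In the RA arm the pluripotency list had a mean log2 level of 6.42 ± 0.59 (SD, n = 3) on day 5 and 9.00 ± 0.38 on day 9, and in the combined arm 8.0 ± 0.54 and 6.88 ± 0.53. Pou5f1 measured 169, 558 and 513 in R7 and 1929, 1774 and 4146 in R9, against 1965, 331 and 529 in M7 and 405, 236 and 474 in M9. Phox2a, which was higher in M5 than in R5 and in B5 (log2 difference from B5 3.33 ± 0.23; adjusted p = 4.17e-12), differed between the arms by 0.36 on day 4, 0.17 on day 7 and 0.11 on day 9, none of them called.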
